A study of Homo sapiens with 8 samples.

Results

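Transcripts of 10 secreted signalling proteins were followed in 2 human melanoma cell lines: the interleukins IL1A, IL1B, IL6 and IL11, the IL-6 family cytokine LIF, the CXC chemokines CXCL1, CXCL2, CXCL3 and CXCL8, and the CC chemokine CCL2. They were taken by Entrez gene identifier, and all 10 were found among the 18478 genes of the authors' table. A2058 and C8161 are established melanoma lines. Cells of the ATF3 arms carried ATF3, an ATF/CREB transcription factor that cells induce under stress, brought in by a retrovirus, and the control arms carried neomycin resistance alone; all were grown in DMEM with 10% FBS. A2058 has 1 library per arm. C8161 has 3 libraries per arm, which the authors combined into 1 column per arm, so each arm has 1 value, no spread between replicates can be given, and no test was run. The labels do not give the promoter that drives ATF3, or say whether the transduced cells were pools or single clones.

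IL-1 alpha and IL-1 beta signal through a shared receptor to NF-kB, the transcription factor that drives many inflammatory genes, among them IL6 and the CXC chemokines of this group. IL-6, IL-11 and LIF each bind a receptor of their own that pairs with gp130 and activates STAT3. CXCL1, CXCL2, CXCL3 and CXCL8 attract neutrophils through CXCR2, and CCL2 attracts monocytes through CCR2. In melanoma several of these factors, CXCL1 and CXCL8 above all, are known as products of the tumour cells themselves. ATF3 is known to restrain cytokine genes in macrophages.

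The regulatory sequence in front of these genes is shown first, and no motif was used to choose them. Because NF-kB is known to drive several members, a high share of its motif among them is not an independent result. Start sites from RefSeq (GRCh38.p14) matched 8 of the 10 members, not LIF and CCL2. The 250 bases before each start were searched on both strands for GGNNTTTCC (an NF-kB type motif), TGANTCA (AP-1 type), ACGTCA (part of the CRE that ATF/CREB factors recognise) and TTGCNNAA (C/EBP type). Below, each sequence runs 5′ to 3′ on the gene's own strand and ends at the base before the start, and capitals mark the matches to these motifs. The first 4 are the neutrophil chemokines, and IL6 and IL11 follow because their values, given further on, differ in pattern from those of the chemokines.
CXCL1: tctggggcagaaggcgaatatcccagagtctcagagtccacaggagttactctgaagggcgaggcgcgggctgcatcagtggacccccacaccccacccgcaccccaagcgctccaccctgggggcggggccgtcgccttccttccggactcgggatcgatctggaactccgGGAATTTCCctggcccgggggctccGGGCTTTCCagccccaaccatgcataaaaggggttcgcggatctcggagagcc
CXCL2: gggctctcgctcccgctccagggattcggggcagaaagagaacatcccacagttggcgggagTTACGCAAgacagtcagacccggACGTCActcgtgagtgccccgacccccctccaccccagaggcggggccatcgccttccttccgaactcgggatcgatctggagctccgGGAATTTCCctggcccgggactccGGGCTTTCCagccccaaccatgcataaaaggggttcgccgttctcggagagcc
CXCL3: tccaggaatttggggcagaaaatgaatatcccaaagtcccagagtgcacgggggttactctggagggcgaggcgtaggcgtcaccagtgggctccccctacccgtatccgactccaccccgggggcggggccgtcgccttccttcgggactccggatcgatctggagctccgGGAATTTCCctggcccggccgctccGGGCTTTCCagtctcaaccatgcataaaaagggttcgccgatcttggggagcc
CXCL8: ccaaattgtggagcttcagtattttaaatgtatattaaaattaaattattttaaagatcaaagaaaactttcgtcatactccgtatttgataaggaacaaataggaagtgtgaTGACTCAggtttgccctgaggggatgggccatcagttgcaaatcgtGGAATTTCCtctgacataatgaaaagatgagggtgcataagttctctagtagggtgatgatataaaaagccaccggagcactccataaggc
IL6: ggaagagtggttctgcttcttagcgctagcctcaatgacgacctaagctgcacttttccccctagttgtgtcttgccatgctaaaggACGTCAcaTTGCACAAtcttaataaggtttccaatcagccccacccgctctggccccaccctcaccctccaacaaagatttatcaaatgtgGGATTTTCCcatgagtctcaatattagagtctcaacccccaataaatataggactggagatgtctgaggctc
IL11: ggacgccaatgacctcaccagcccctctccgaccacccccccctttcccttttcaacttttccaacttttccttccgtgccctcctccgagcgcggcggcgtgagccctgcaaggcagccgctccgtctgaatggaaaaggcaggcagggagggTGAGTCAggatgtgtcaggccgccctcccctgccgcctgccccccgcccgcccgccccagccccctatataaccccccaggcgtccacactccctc
These windows lie at chr4:73869143-73869392 (plus strand), chr4:74099196-74099445 (minus), chr4:74038690-74038939 (minus), chr4:73740319-73740568 (plus), chr7:22726950-22727199 (plus) and chr19:55370464-55370713 (minus).

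CXCL1, CXCL2 and CXCL3 each carried 2 NF-kB type matches at nearly the same places. In CXCL1 and in CXCL3 they lay 78 to 70 and 53 to 45 bases before the start, and in CXCL2 77 to 69 and 53 to 45. The windows of CXCL1 and CXCL3 were 81.4% identical in a global alignment, those of CXCL2 and CXCL3 73.4%, and those of CXCL1 and CXCL2 70.1%. CXCL8 and IL6 had 1 NF-kB type match each, at 91 to 83 and at 72 to 64 bases. In all, 5 of the 8 matched members held this motif, against 5.48% of the 35116 windows of the same length in the RefSeq table. The windows of CXCL1, CXCL2 and CXCL3 are too alike to count as separate findings, and the share was not tested. The same motif with a further G in front was present in IL6, CXCL1, CXCL2 and CXCL3 and in 1.73% of all windows.

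The AP-1 type motif was found in IL1A, IL11 and CXCL8, against 6.57% of all windows. The CRE part ACGTCA was found in IL6, 163 to 158 bases before the start, and in CXCL2, 165 to 160 bases before it, against 7.10% of all windows, and the full palindrome TGACGTCA was found in none of the 8 members and in 1.65% of all windows. The C/EBP type motif was found in IL1B, IL6 and CXCL2, against 9.05%. A match is a string of letters and not a measured binding site.

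The introduced gene was higher in both lines. ATF3 was at 62.57 RPKM (read density scaled to transcript length and library size) in C8161 with ATF3 against 4.76 RPKM in its control, and at 4.71 RPKM in A2058 with ATF3 against 1.22 RPKM in its control. Of 10 melanocytic markers, all reached 1 RPKM in both A2058 arms, with the lineage factor SOX10 at 252.79 RPKM with ATF3 and 253.85 RPKM in the control. In C8161 these markers were nearly absent: SOX10 was at 0.05 and 0.06 RPKM, the pigment protein PMEL at 0.13 and 0.18 RPKM, TYR was listed at 0 in both arms, and the highest was CSPG4 at 12.49 and 13.31 RPKM. The data thus give C8161 no melanocytic marker profile, and the line is named here by its label. The spacing of low values placed both A2058 libraries at about 17600000 reads, whereas the combined C8161 columns showed no clear spacing and their depth is unknown.

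All members except IL11 and CCL2 were higher in C8161 than in A2058, and most of them by far more than they differed between the arms of a line. CXCL1 was the most abundant member in each column. It was at 313.27 RPKM in C8161 with ATF3 and 317.46 RPKM in the C8161 control, and at 7.04 and 5.87 RPKM in A2058 with ATF3 and its control. In both C8161 arms it stood at rank 207 of the 18478 genes by RPKM, and in A2058 at ranks 7693 and 8291.

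CXCL8, the most studied neutrophil attractant of the group, was at 51.08 RPKM in C8161 with ATF3 and 48.49 RPKM in its control. In A2058 it was at 3.56 RPKM with ATF3 and 2.73 RPKM in the control. CXCL2 was at 25.07 and 24.33 RPKM in C8161, and at 0.70 and 0.64 RPKM in A2058. CXCL3 was at 14.24 and 13.69 RPKM in C8161, and at 0.72 and 0.92 RPKM in A2058. For each of these 4 chemokines both C8161 values lay above both A2058 values, and the 2 arms of a line lay close together. The 3 GRO chemokines are paralogs, and 5.73% of the 50-base stretches of the longest CXCL1 transcript, 9.24% of those of CXCL2 and 3.02% of those of CXCL3 also occur in another gene, so a small part of their reads could be assigned to the wrong member.

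IL1B, the secreted interleukin 1 that needs cleavage by caspase-1, was at 47.91 RPKM in C8161 with ATF3 and 46.41 RPKM in its control. In A2058 it was at 0.82 RPKM with ATF3 and 0.85 RPKM in the control, which is about 24 reads in each library. IL1A, which is active without that cleavage, was at 15.31 and 18.16 RPKM in C8161 and at 0.02 and 0.06 RPKM in A2058, where about 1 and 2 reads stand behind it. Both interleukin 1 genes were thus far above 1 RPKM in C8161 and under it in A2058, where IL1A was close to the detection limit.

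LIF, named for its effect on leukaemia cells and active through gp130, was at 18.47 RPKM in C8161 with ATF3 and 22.53 RPKM in its control, and at 3.71 and 3.50 RPKM in A2058. IL6 was low throughout, at 3.82 RPKM in C8161 with ATF3, 2.66 RPKM in its control, 0.94 RPKM in A2058 with ATF3 and 1.28 RPKM in its control. IL11 had the opposite order of the lines. It was at 4.44 RPKM in A2058 with ATF3 and 3.51 RPKM in its control, and at 0.85 and 1.07 RPKM in C8161. CCL2 was under 1 RPKM in all 4 columns, at 0.12 and 0.05 RPKM in C8161 and at 0.08 and 0.52 RPKM in A2058, the last pair resting on about 1 and 9 reads.

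**Figure D1:**
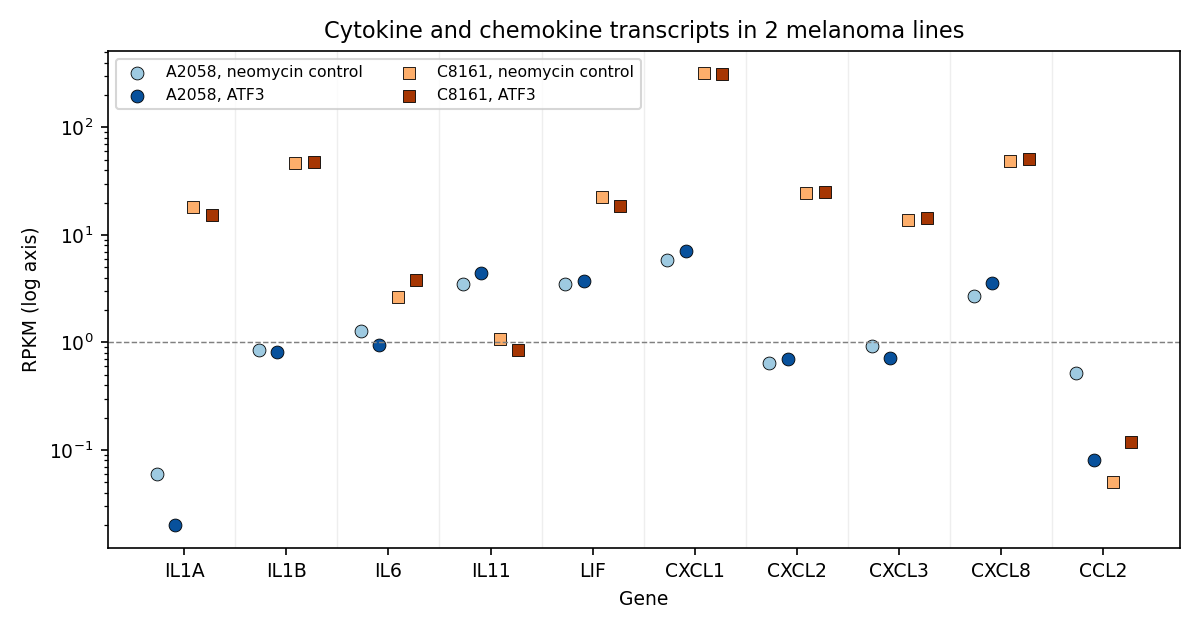
Level of each of the 10 genes in RPKM on a log axis, with 1 point per arm: circles for the A2058 libraries, squares for the combined C8161 values, light for the neomycin control and dark for ATF3. The dashed line marks 1 RPKM. The C8161 squares of CXCL1 sit above 300 RPKM and its A2058 circles under 10 RPKM, whereas the order is turned for IL11.

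The order of the members by RPKM was the same in both C8161 arms: CXCL1, CXCL8, IL1B, CXCL2, LIF, IL1A, CXCL3, IL6, IL11 and CCL2. In A2058 both arms began with CXCL1, IL11, LIF, CXCL8 and IL6 and ended with CCL2 and IL1A. Between them CXCL2, CXCL3 and IL1B lay within 0.64 to 0.92 RPKM, with CXCL2 lowest in both arms and IL1B above CXCL3 with ATF3 and below it in the control. Without a spread over libraries it cannot be said which neighbours in these orders differ. In bulk RNA, more cells that express a gene and more RNA per expressing cell cannot be told apart.

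The difference between the lines was computed from the control arms as the log2 ratio of RPKM + 1, over genes that reached 1 RPKM in either column, and a gene was counted as higher or lower past 2-fold on that scale. Of 9 members compared, 7 were higher in C8161, 1 was lower and 1 did not pass 2-fold. IL1A, IL1B, CXCL2 and CXCL3 were under 1 RPKM in control A2058 and were compared through C8161 alone. They could therefore not come out lower, and the same holds for any listed gene that reached 1 RPKM only in C8161. CCL2, under 1 RPKM in both, was not compared. The members were chosen with earlier results of these data known, so their count and median only describe them. Among all 12372 genes compared, 30.0% passed, with 9.37% higher and 20.7% lower. The median log2 ratio of the members was 3.73, against −0.19 over all genes. In RPKM without the added 1, the control of C8161 was above that of A2058 by 54.6-fold for IL1B, 54.1-fold for CXCL1, 38.02-fold for CXCL2, 17.8-fold for CXCL8, 14.9-fold for CXCL3 and 6.44-fold for LIF. IL1A had a log2 ratio of 4.18 with the added 1, and no fold is given because about 2 reads decide its A2058 level.

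IL11 was the member lower in C8161, with a log2 ratio of −1.12. It no longer passed 2-fold after quantile normalization (−0.63) or with trends in GC content and transcript length taken out (−0.97). IL6 had a log2 ratio of 0.68, inside 2-fold; it was at 1.15 after quantile normalization and reached 2-fold with 0.1 in place of 1 added to RPKM. That normalization moved the median over all genes from −0.19 to 0.08 and the split of all genes from 1159 higher and 2555 lower to 1681 higher and 1866 lower. The ATF3 arms share no library with the control arms and gave 8 members higher and 1 lower of 9 compared, where 31.3% of 12381 genes passed, 9.93% higher and 21.4% lower. Their log2 ratios were 5.29 for CXCL1, 4.75 for IL1B, 3.999 for IL1A, 3.94 for CXCL2, 3.51 for CXCL8, 3.15 for CXCL3, 2.05 for LIF, 1.31 for IL6 and −1.56 for IL11. In these arms IL1A, IL1B, IL6, CXCL2 and CXCL3 were compared through C8161 alone and IL11 through A2058 alone. The direction of those ratios was thus fixed by the minimum. These 2 lines differ in far more than their cytokines, and with 1 line of each kind the values describe A2058 and C8161 alone.

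CXCL8, CXCL1, CXCL3 and CXCL2 lie within 359 kb of chromosome 4 (73740569 to 74099195, GRCh38), and the table lists 6 genes in that stretch. The others listed there, the closely related chemokines CXCL6 and CXCL5, were at or near 0 in C8161. CXCL6 was listed at 0 in both arms and CXCL5 at 0.01 RPKM in both. In A2058 CXCL6 was at 0.07 and 0 RPKM and CXCL5 at 0.02 and 0.04 RPKM. IL1A and IL1B open a stretch of 360 kb on chromosome 2 (112773925 to 113134014) with 8 listed genes, all of the interleukin 1 family. The other 6, IL37, IL36G, IL36A, IL36B, IL36RN and the receptor antagonist IL1RN, were at 0.11 RPKM or less in each column. Of the genes listed, 4 of 6 in the chemokine stretch and 2 of 8 in the interleukin 1 stretch thus had high levels in C8161. Genes of these stretches that are not listed cannot be judged.

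**Figure D2:**
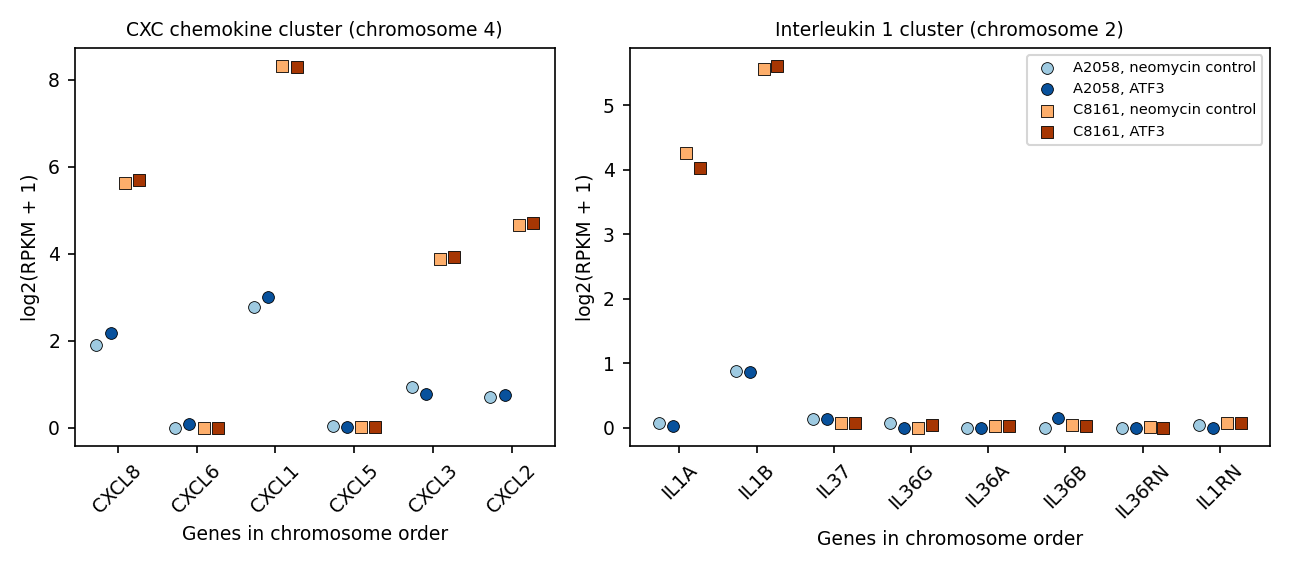
Level as log2(RPKM + 1) of the listed genes in the CXC chemokine cluster (left) and the interleukin 1 cluster (right). Genes are in chromosome order and not to scale, with circles for A2058 and squares for C8161. CXCL6 and CXCL5 lie at or near 0 between members with high C8161 values, and the 6 genes after IL1B lie near 0 in each column.

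With added ATF3 the C8161 chemokines hardly differed from their control, whereas IL6 was higher and LIF lower. A difference between arms was counted past 1.2-fold on the scale of RPKM + 1, a log2 ratio of 0.26. Of 9 members compared, 1 was higher and 1 lower, and 7 did not pass. Over all 10941 genes compared, 4.92% passed, 2.20% higher and 2.71% lower, and whether 2 of 9 members differs from that share was not tested. The median log2 ratio of the members was 0.04, and that of all genes 0.01.

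IL6 had the largest difference, with a log2 ratio of 0.40 and 1.44-fold in RPKM (3.82 against 2.66). Among genes with a mean of 1 to under 5 RPKM in C8161, 4.71% passed 1.2-fold in either direction. LIF had a log2 ratio of −0.27, just past the threshold (18.47 against 22.53 RPKM), where 4.65% of genes with a mean of 5 to under 50 RPKM passed. It did not pass after quantile normalization (−0.25) or with the GC and length trends taken out (−0.22). IL1A was at −0.23, and at −0.27, past the threshold, with those trends removed. IL11 was at −0.16 near 1 RPKM, and at −0.30, past the threshold, with 0.1 in place of 1 added to RPKM.

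The 5 remaining members lay within a narrow range of log2 ratios. CXCL8 was at 0.07, CXCL3 at 0.05, IL1B and CXCL2 at 0.04 and CXCL1 at −0.02. CXCL1, CXCL2, CXCL3 and CXCL8 are the chemokines with an NF-kB type motif in the sequences above, and IL6 is the other such member of the 8 searched. IL1B, in the same narrow range, had no such match, and IL6, with a match, had the largest ratio. LIF and CCL2 were not searched, and a link between the motif and these ratios was not tested. The C8161 ratios of all genes fell with GC content (Spearman's rho −0.42 across 10861 genes, which are not independent) and increased with transcript length (0.20). Removing both trends turned the split of all genes from 241 higher and 297 lower to 300 higher and 91 lower. LIF has a GC content of 56.9% in its longest transcript and IL1A one of 39.1%, and IL6, at 44.5%, kept a log2 ratio of 0.39.

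In A2058, 5 members reached 1 RPKM in at least 1 arm, and 2 of them, CXCL8 and IL11, were higher with ATF3 past 1.2-fold. None of the 5 was lower with 1 added to RPKM. With 0.1 added, IL6 passed as lower, at −0.41. Among 11883 genes compared, 3.53% passed, with 2.02% higher and 1.51% lower. CXCL8 had a log2 ratio of 0.29 (3.56 against 2.73 RPKM, about 107 and 82 reads). IL11 had one of 0.27 (4.44 against 3.51 RPKM, about 178 and 141 reads), and of 0.25, inside the threshold, once the GC and length trends were removed. CXCL1 was at 0.23 (7.04 against 5.87 RPKM, about 136 and 113 reads), LIF at 0.07 and IL6 at −0.23 (about 25 and 34 reads). The share of A2058 genes past 1.2-fold was higher at low levels: 9.13% of those with a mean of 1 to under 5 RPKM passed, against 104 of 6956 at 5 to under 50 RPKM. The members' median of 0.23 over 5 genes stands beside a median of 0.00 over all genes. IL1A, IL1B, CXCL2, CXCL3 and CCL2 were not compared because both arms lay under 1 RPKM. Among these, CCL2 had a log2 ratio of −0.49 on about 1 and 9 reads, lower past 1.2-fold if no minimum is set.

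**Figure D3:**
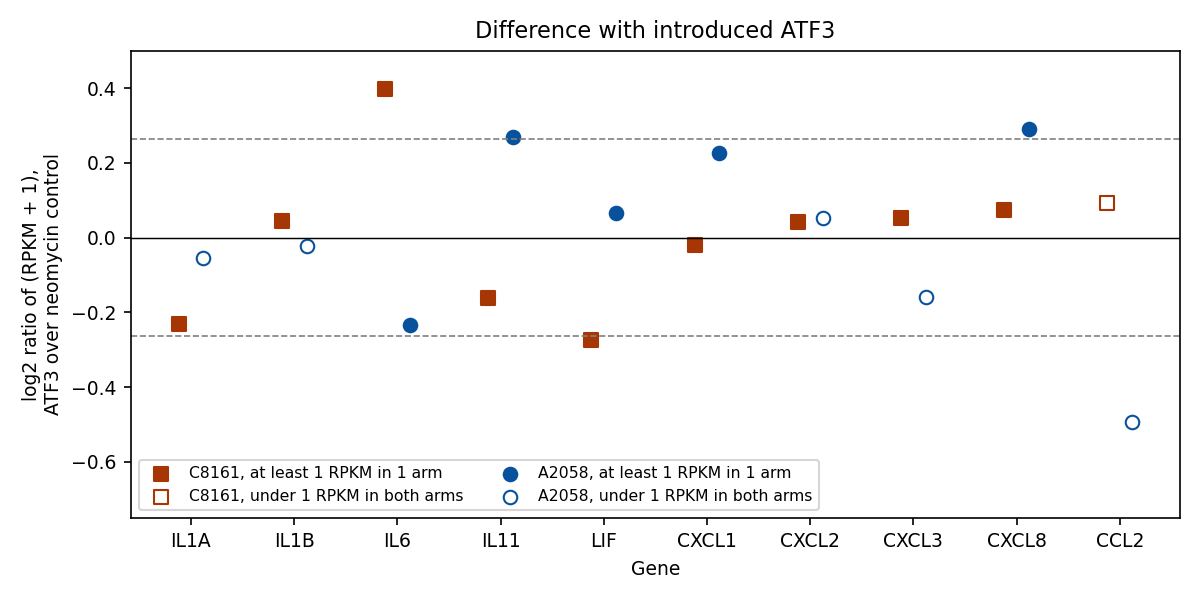
Log2 ratio of RPKM + 1, ATF3 over neomycin control, for each gene in C8161 (squares) and A2058 (circles), with open symbols where both arms lay under 1 RPKM and dashed lines at 1.2-fold. IL6 lies above the upper line in C8161 and below 0 in A2058, whereas CXCL8 and IL11 lie above the upper line in A2058.

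IL6, IL11, LIF and CXCL1 had log2 ratios of opposite sign in the 2 lines. For IL6 they were 0.40 in C8161 and −0.23 in A2058, for IL11 −0.16 and 0.27, for LIF −0.27 and 0.07, and for CXCL1 −0.02 and 0.23. None of these genes passed 1.2-fold in both lines, and the difference between lines was not tested. The CXCL1 value in C8161 was 0.00 after quantile normalization, so its sign there depends on the scaling. Each column serves in 2 of the comparisons given here, 1 between arms and 1 between lines, so those comparisons are not independent. CXCL8 was above 0 in both lines (0.07 and 0.29). The added ATF3 level also differed, since transduced A2058 cells reached 4.71 RPKM, close to the 4.76 RPKM of control C8161; its part in these values was not tested.

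Receptors for these factors also differed between the lines. IL1R1, the signalling receptor of interleukin 1, was at 0.31 and 0.24 RPKM in C8161 and at 0.03 RPKM in both A2058 arms, while its partner IL1RAP was at 7.96 to 11.23 RPKM across the 4 columns. CXCR2 was at 0.16 to 0.22 RPKM in the 4 columns and CCR2 was listed at 0 in each. IL6ST, which encodes gp130, was at 27.25 and 27.39 RPKM in C8161 against 9.81 and 9.84 RPKM in A2058. IL6R had the opposite order, at 2.79 and 2.64 RPKM in C8161 against 12.25 and 12.05 RPKM in A2058, as did IL11RA, at 1.03 and 1.08 RPKM against 7.23 and 8.57 RPKM. LIFR was at 1.46 and 1.27 RPKM in C8161 and at 0.06 and 0.04 RPKM in A2058. IL11 and IL11RA were thus both higher in A2058, and LIF, LIFR and IL6ST in C8161. None of the receptors compared passed 1.2-fold with ATF3, of 6 in C8161 and of 5 in A2058. Over all genes 4.92% and 3.53% passed, so these counts of 0 say little about the receptors. Closest to the threshold in C8161 was SIGIRR, a brake on interleukin 1 receptors, at 10.34 against 12.56 RPKM (log2 ratio −0.258, just inside it).

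Among genes that process and release interleukin 1, several differed between the lines. PYCARD, the adaptor ASC that joins inflammasome sensors to caspase-1, was listed at 0 in both C8161 arms and at 28.89 and 27.16 RPKM in A2058. The sensor NLRP3 had the reverse pattern, at 5.42 and 5.27 RPKM in C8161 and 0.12 and 0.16 RPKM in A2058, and CASP1 was at 2.25 and 2.44 RPKM in C8161 and 0.35 and 0.40 RPKM in A2058. CAPN2, a calpain subunit of the protease family that cleaves IL-1 alpha, was at 311.06 and 291.49 RPKM in C8161 against 73.36 and 75.39 RPKM in A2058. The pore-forming GSDMD was at similar levels in both lines, 33.79 and 40.67 RPKM in C8161 and 33.16 and 36.01 RPKM in A2058. Of 9 genes of this list compared between the control lines, 5 were higher in C8161 and 1 lower, with a median of 1.30, where 9.37% of all genes were higher and 20.7% lower. None of the 8 compared in C8161 with ATF3, nor of the 7 in A2058, passed 1.2-fold, where 4.92% and 3.53% of all genes passed, so these counts of 0 say little about the list.

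Of 24 signalling genes from the interleukin 1 receptor to NF-kB, 3 were higher in control C8161 past 2-fold and 2 lower, with a median log2 ratio of 0.07. Since 30.0% of all genes passed 2-fold, this count and those of the gp130 and decay lists below say little about the lists themselves. NFKBIA, the inhibitor that NF-kB itself induces, was at 44.22 RPKM in control C8161 against 14.52 RPKM in control A2058, whereas TNFAIP3, another induced inhibitor (A20), was at 5.09 against 22.53 RPKM. The subunit RELA was at 44.26 and 37.90 RPKM. With ATF3 in C8161, 2 of 24 passed 1.2-fold, where 4.92% of all genes passed. Both were higher: TNFAIP3 (6.71 against 5.09 RPKM) and BCL3, a nuclear partner of NF-kB (8.56 against 6.62 RPKM). BCL3 was also the single gene of 23 past the threshold in A2058, at 7.52 against 5.67 RPKM, where 3.53% of all genes passed. TAB2 (27.88 against 23.79 RPKM in C8161) and NFKBIE (9.99 against 11.92 RPKM) did not pass.

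Downstream of gp130, PIM1, a kinase gene induced by STAT3, was at 5.12 RPKM in C8161 with ATF3 against 3.49 RPKM. It was the single gene of 13 past 1.2-fold there, where 4.92% of all genes passed. None of 13 passed in A2058, where 3.53% of all genes passed. SOCS3, the feedback inhibitor of gp130, was at 7.60 against 7.34 RPKM in C8161 and 5.13 against 5.19 RPKM in A2058. STAT3 was lower in C8161 than in A2058, at 21.91 against 54.06 RPKM in the controls, and SOCS1 was higher, at 4.64 against 0.50 RPKM. Over this list the median of the control lines was 0.22, with 3 of 14 genes higher and 2 lower.

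Transcription factors known at cytokine promoters were split between the lines, with 4 of 14 higher and 4 lower in control C8161 and a median of 0.02. Among all genes 9.37% were higher and 20.7% lower, and whether these counts differ from those shares was not tested. JUN was at 120.69 RPKM in control C8161 against 3.10 RPKM in control A2058, and FOSL1 at 489.11 against 45.41 RPKM; both are AP-1 subunits. JUNB went the other way, at 18.03 against 49.97 RPKM, as did FOS, at 1.62 against 7.83 RPKM. CEBPB, the C/EBP factor of the acute phase response, was at 31.88 and 32.92 RPKM in the 2 controls. None of the 14 passed 1.2-fold with ATF3 in either line, where 4.92% of all genes passed in C8161 and 3.53% in A2058. That count of 0 says little about the list. CEBPB was at 26.90 against 31.88 RPKM in C8161. Proteins that degrade cytokine messengers included ZFP36 (tristetraprolin), at 9.42 against 7.76 RPKM in C8161 and at 6.02 against 4.63 RPKM in A2058, where it was the single gene of 13 past 1.2-fold. Its relative ZFP36L1 was at 119.26 RPKM in control C8161 against 19.08 RPKM in control A2058. None of the 13 decay genes passed in C8161 with ATF3, and 2 of 13 were higher between the control lines. Beside the same shares of all genes, 4.92% in C8161 and 3.53% in A2058, the counts with ATF3 say little about this list.

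**Figure D4:**
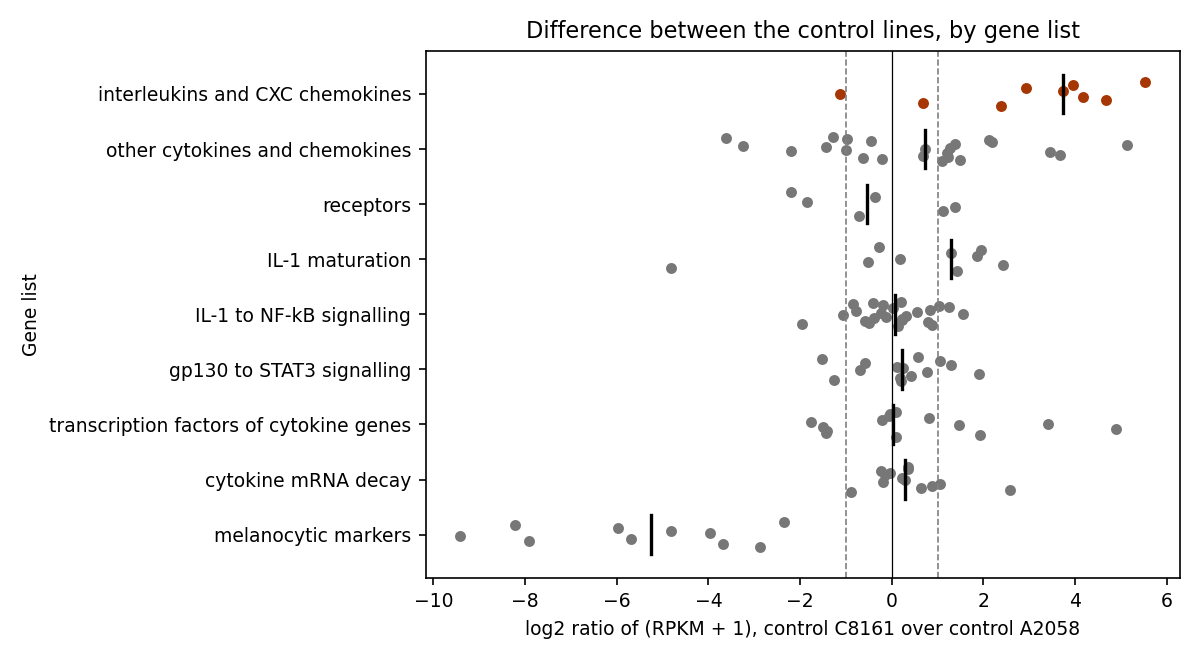
Log2 ratio of RPKM + 1, control C8161 over control A2058, with 1 point per gene compared, the median of each list as a black bar and dashed lines at 2-fold. The interleukins and CXC chemokines have a median of 3.73 and the melanocytic markers one of −5.25. The signalling, transcription factor and decay lists have medians of 0.02 to 0.28, with genes past 2-fold in each, up to 4.89 for JUN.

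Of 23 other cytokines and chemokines compared between the control lines, 11 were higher in C8161 and 6 lower, with a median of 0.73, where 9.37% of all genes were higher and 20.7% lower. CSF3, the granulocyte growth factor G-CSF, was at 33.52 and 34.00 RPKM in C8161 and listed at 0 in both A2058 arms, and IL32 was at 24.12 and 21.22 RPKM against 0.65 and 0.75 RPKM. CCL28 was at 0.33 and 0.32 RPKM in C8161 against 16.78 and 15.12 RPKM in A2058. With ATF3 in C8161, 3 of 16 passed 1.2-fold upwards and 1 downwards, where 2.20% of all genes passed upwards and 2.71% downwards. Whether these counts differ from those shares was not tested. IL24, a relative of IL-10, had 5.13 RPKM with ATF3 and 3.19 RPKM without, and CSF2, the growth factor GM-CSF, at 2.70 against 1.97 RPKM. TSLP, an epithelial cytokine outside the rule for named genes, had 1.67 RPKM with ATF3 and 1.14 RPKM without. MIF was lower, at 450.35 against 604.40 RPKM. In A2058, CCL5 was the single gene of 14 past the threshold, at 4.10 against 2.82 RPKM, where 3.53% of all genes passed.

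Blood cells and fibroblasts also make these factors, so their markers are given beside the levels. Of 10 leukocyte markers in the table, the pan-leukocyte gene PTPRC was at 0.25 and 0.24 RPKM in C8161 and 0.37 and 0.43 RPKM in A2058, and TYROBP was listed at 0 in 3 of the 4 columns. The summed level of that list was 17.7 and 17.8 RPKM in C8161, of which LAPTM5 made up 16.30 and 16.03 RPKM, and 5.24 and 5.40 RPKM in A2058. The 9 fibroblast markers summed to 3.46 and 3.21 RPKM in C8161, of which FAP made up 2.47 and 2.31 RPKM. COL3A1 and DCN were listed at 0 there. In A2058 the fibroblast markers summed to 22.4 and 20.3 RPKM, with LUM at 7.92 and 7.67 RPKM and THY1 at 7.9 and 7.09 RPKM. The 8 endothelial markers summed to 20.4 and 10.4 RPKM in C8161, of which CDH5 made up 18.14 and 8.86 RPKM, and to 1.03 and 0.94 RPKM in A2058. In C8161, CDH5 and ERG (1.36 against 0.86 RPKM) were the 2 endothelial markers that could be compared between the arms. Both were higher with ATF3 past 1.2-fold, as were 2.20% of all genes, in the arm in which IL6 was higher. The other endothelial markers, PECAM1, VWF, KDR, TEK, CLDN5 and EMCN, were at 0.34 RPKM or less in both C8161 arms. In A2058 with ATF3, the arm in which CXCL8 and IL11 were higher, the fibroblast collagen COL1A1 was at 4.99 against 3.97 RPKM, and all 3 fibroblast markers compared were above 0, COL1A1 alone past 1.2-fold. Of 3 leukocyte markers compared there, LYZ was higher, at 2.07 against 1.28 RPKM, and FCER1G lower, at 0.39 against 1.17 RPKM. Over all A2058 genes 3.53% passed 1.2-fold, and 9.13% of those with a mean of 1 to under 5 RPKM. With so few markers at low levels, these counts say little about the lists. CDH5, LAPTM5, COL1A1, FAP, LUM, THY1, ERG, TYROBP, COL3A1 and DCN were named by rule. The rule was a ratio among the largest of the list or a value listed at 0. The other markers here were named after their values were seen. The part of all these markers in the members' values was not tested.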

How the data were processed

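RNA-seq values of A2058 and C8161 cells with ATF3 or a neomycin control were used as deposited. The table gives RPKM with 2 decimals for 18478 Entrez genes, computed by the authors, per the file headers; per the submitters' processing notes, the tools were Bowtie2 and RSEM (no version) and the build hg38. The annotation, any filter and the strand setting: not given in the sources used here. The C8161 columns are combined values, whether means or pooled reads is not stated. Symbols and coordinates came from RefSeq (GRCh38.p14; 18152 genes matched), and GC content and length from the longest GENCODE 29 transcript. Ratios were log2(RPKM + 1) differences over genes with at least 1 RPKM in 1 of the 2 columns, which understates differences of low genes, and were counted past 1.2-fold (ATF3) or 2-fold (lines), with no test. Depth was estimated from whole-read steps in genes with transcripts of 400 to 1500 bases, and read numbers are approximate because the authors' transcript lengths are unknown. The scripts (Python 3.11.15, pandas 2.3.3, statsmodels 0.14.6) were tested on simulated data. Those tests changed only genes well above the A2058 levels of the members, and by more than the thresholds. They do not cover calls on low genes or close to a threshold. Alternatives were a pseudocount of 0.1, no minimum or 5 RPKM, quantile normalization, lowess removal of GC and length trends, and other folds. Members and 7 further gene lists were chosen with earlier results of these data known. Of each further list, genes with a mean of at least 2 RPKM were named by the largest absolute ratios, up to 4 in C8161, 2 in A2058 and 3 between the controls; others named here were chosen after their values were seen.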

Additional observations from a re-analysis of the deposited data

Results flagged for a closer look

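Each of 4 members had log2 ratios of opposite sign with ATF3 in the 2 lines, which is why they are listed here; with 1 value per arm the difference was not tested. The C8161 ratio minus the A2058 ratio was 0.63 for IL6, −0.43 for IL11, −0.34 for LIF and −0.25 for CXCL1. The CXCL1 value in C8161 lies so close to 0 that it was 0.00 after quantile normalization. About 25 and 34 reads stand behind the A2058 values of IL6.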

How the results depend on the processing

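No paired analysis was possible because the C8161 libraries are combined into 1 column per arm and A2058 has 1 library per arm; leaving out a library could not be run for the same reason. The count of members past the threshold with ATF3 in C8161, 2 of 9, was 1 of 7 with a minimum of 5 RPKM, 1 after quantile normalization, 4 at 1.1-fold and 0 at 1.5-fold. In A2058 the count of 2 of 5 was 0 of 1 with a minimum of 5 RPKM and 3 of 10 with none, where CCL2 was added as lower. It was 1 with the GC and length trends taken out, 4 at 1.1-fold and 0 at 1.5-fold. IL6 in A2058 went from −0.23 to −0.41, past the threshold, with a pseudocount of 0.1. The counts between the lines stayed within 1.5 times of 8 and 9 under each alternative. In C8161, lists with 0 past the threshold gave with a pseudocount of 0.1 counts of 1 for receptors, 1 for IL-1 maturation, 2 for transcription factors and 1 for decay genes. Receptors gave 1 after quantile normalization. With the trends removed, transcription factors gave 2, decay genes 1 and gp130 signalling 2 in place of 1, and with a minimum of 5 RPKM the other cytokines gave 2 in place of 4. With 0.1 added in place of 1, the percentage of all genes past 1.2-fold went from 4.92 to 8.01 in C8161 and from 3.53 to 7.14 in A2058. The cause of these changes was not tested. No member past a threshold changed sign under any alternative run. Precision is limited by the single value per arm and, in A2058, by the few reads of IL1A, IL1B, IL6, CXCL2, CXCL3 and CCL2.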

Other observations

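Further secreted factors, chosen here after their values were seen, were also divided between the lines. IL18, another cytokine that caspase-1 activates, was at 21.51 RPKM in C8161 with ATF3 and 23.23 RPKM in its control, against 1.41 and 1.22 RPKM in A2058. CLCF1, a further ligand that signals through gp130, was at 10.63 and 10.99 RPKM in C8161 against 1.75 and 1.77 RPKM, and CSF1, the macrophage growth factor, at 14.72 and 15.68 RPKM against 2.99 and 2.65 RPKM. TNF was at 2.12 and 2 RPKM in C8161, and in A2058 it was listed at 0 with ATF3 and at 0.07 RPKM in the control. CX3CL1, a membrane-bound chemokine, was at 8.69 and 8.53 RPKM in A2058 and listed at 0 in both C8161 arms, and IL17D was at 6.52 and 6.82 RPKM in A2058 against 0.86 and 0.70 RPKM. TGFB1 was at similar levels in the 4 columns, 54.02 to 62.95 RPKM.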
